A study of Mus musculus with 6 samples.

Results

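The genes described here are 10 transcripts that report on and restrain the extracellular signal-regulated kinase (ERK) pathway: Dusp1, Dusp4, Dusp5, Dusp6, Spry2, Spry4, Spred1, Etv4, Etv5 and Phlda1. They were picked by symbol from the 78298 genes of the deposited table. In RENCA cells overexpressing Aqp1, the pathway's feedback genes did not move as a block. Dusp4 and Phlda1 rose by 1.31-fold and 1.43-fold, Dusp1 fell to 0.822 times its control level, and 5 further genes, Dusp6, Spry2, Spred1, Etv4 and Etv5, did not pass the test. The same test called 16% of all genes kept by a low-count filter higher and 16.6% lower. The 2 higher and 1 lower of 8 tested genes lay near that background. Dusp5 and Spry4 were at or next to 0 counts in all 6 samples.

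ERK lies at the end of a kinase relay that runs from growth factor receptors through RAS, RAF and MEK. Active ERK switches on transcription factors, and among the genes they induce are the pathway's own brakes: dual-specificity phosphatases (DUSPs) remove the activating phosphates from ERK and related kinases, and Sprouty and Spred proteins restrain signalling at the level of RAS and RAF. For that reason the RNA levels of Dusp6, Spry4, Etv4, Etv5 and Phlda1 are widely used as a readout of pathway output in tumor cells, although RNA is not a measure of ERK phosphorylation itself.

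RENCA is a mouse renal adenocarcinoma line. The oe-AQP1 cells (3 samples) carried a lentivirus with the mouse Aqp1 coding sequence, a water channel gene, driven by the ubiquitin C promoter. The oe-NC cells (3 samples) carried the empty vector without that insert. Both were transduced for 48 hours and then held in 2 µg/mL puromycin for 14 days, so the comparison is between stably selected, mixed populations that share the vector backbone and the drug, and an untransduced parental line was not analysed here. The sample titles give a time of 2 weeks, and all 6 samples were in 1 batch by label. Apart from the design's word that they are biological replicates, nothing says that the samples came from separate cultures, so the p-values measure the spread between these samples.

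The samples held 18385714 to 21920899 expected counts each. Aqp1 stood at 390, 389 and 381 CPM (counts scaled to a library of 1000000) in oe-AQP1 and at 2.09, 1.37 and 2.11 CPM in oe-NC (log2FC = 7.70, FDR = 1.34e-10), so the labels and the targeted gene matched. FDR is the Benjamini-Hochberg adjusted p of limma-voom over the 15522 genes kept by the low-count filter, and log2FC is oe-AQP1 minus oe-NC. Of these genes, 16% were higher and 16.6% lower at FDR under 0.05, while 5.23% also had an absolute log2FC above 1, the threshold for a differentially expressed gene (DEG). The sample oe-NC 1 stood apart: its chi-square per gene against the other oe-NC samples was 9.46 and 11, where every other pair within a group gave 1.71 to 2.04. The result of each measured gene of the 10 is therefore also given without it. Leaving out oe-NC 1 because of its own values narrows the spread of the controls for genes in general. That fit called 3125 genes higher and 3331 lower of 16085, beside 2481 and 2569 of 15522 with all samples. Its smaller FDRs are therefore not stronger evidence for a gene.

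Renal epithelial markers were measured in 7 of 8 cases, with Krt8, Krt18, Cdh16 and Pax8 well expressed and Epcam at 0 counts. Their summed level was 829 to 858 CPM in oe-AQP1 and 1000 to 1110 CPM in oe-NC, and 4 of the 7 were lower in oe-AQP1 (57.1%, beside 16.6% of all kept genes). Macrophage markers summed to 47.7 to 51 CPM and 55.7 to 58.8 CPM, with 3 of 6, including Ptprc and Adgre1, at no more than 3 counts in any sample. Of the 3 measured, Csf1r (log2FC = -1.51, a DEG) and Lyz2 (log2FC = -0.52) were lower and Cd68 did not pass the test (log2FC = 0.15, FDR = 0.0764). Fibroblast markers summed to 12.6 to 13.8 CPM and 18.1 to 26.6 CPM, with 3 of 5 at no more than 3 counts. All 4 T cell markers and 3 of 4 endothelial markers were at no more than 3 counts, and 2 of 4 proximal tubule markers, Slc34a1 and Slc5a2, were too. The other 2 summed to 22.1 to 25.5 CPM in oe-AQP1 and 38.4 to 40.6 CPM in oe-NC, with Lrp2 lower (log2FC = -0.93, FDR = 1.56e-05) and Cubn not past the test (log2FC = -0.32, FDR = 0.0511). The part of these shifts in the results below was not tested. In bulk RNA, fewer cells expressing a gene and less RNA in each cell cannot be told apart.

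The stretch of DNA just before a gene's start is where signal-responsive factors bind. RefSeq promoters on GRCm38.p6 were found for 6 of the 10 genes (7 promoters), and the 250 bases before the start were searched on both strands for a cAMP response element (CRE) core (TGACGTC), an AP-1 site (TGANTCA), an ETS core (CCGGAA) and the CArG box that serum response factor reads. No promoter was available for Dusp4, Etv4, Phlda1 and Spry4, so these genes were not searched. The promoters of Dusp1, Dusp5 and Dusp6 are shown because these are the phosphatase genes among the 6. Of them only Dusp1 was called, while Dusp5 had next to no counts and Dusp6 did not pass the test. They are Dusp1 at chr17:26508473-26508722 on the minus strand, Dusp5 at chr19:53528895-53529144 on the plus strand and Dusp6 at chr10:99262981-99263230 on the plus strand. The starts are those of RefSeq and were not matched to the gene spans given further below, which are on another build. Capitals mark the motif matches.
Dusp1: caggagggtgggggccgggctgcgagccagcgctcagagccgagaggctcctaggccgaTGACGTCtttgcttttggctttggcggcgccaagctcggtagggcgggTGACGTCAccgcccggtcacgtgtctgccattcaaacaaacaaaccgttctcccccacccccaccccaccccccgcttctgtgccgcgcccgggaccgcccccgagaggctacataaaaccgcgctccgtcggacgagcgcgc
Dusp5: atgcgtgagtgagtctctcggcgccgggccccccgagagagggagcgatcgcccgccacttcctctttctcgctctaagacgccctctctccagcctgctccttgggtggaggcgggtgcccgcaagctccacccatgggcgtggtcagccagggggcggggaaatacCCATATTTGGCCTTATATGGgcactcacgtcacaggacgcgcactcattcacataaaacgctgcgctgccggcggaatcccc
Dusp6: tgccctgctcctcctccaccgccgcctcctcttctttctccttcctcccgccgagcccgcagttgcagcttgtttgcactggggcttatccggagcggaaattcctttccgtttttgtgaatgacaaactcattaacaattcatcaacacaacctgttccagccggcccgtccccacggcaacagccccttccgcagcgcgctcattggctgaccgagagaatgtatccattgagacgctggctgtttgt
In Dusp1 the capitals are the CRE core, which matched 3 times, at -191 to -185, -143 to -137 and -142 to -136 from the start, the last 2 of them overlapping in 1 palindrome. In Dusp5 they are 2 adjoining CArG boxes at -82 to -73 and -72 to -63. The Dusp6 window held none of the 4 motifs as spelled above. Over all 32851 promoters in the table, 2.78% held the CRE core, 1.47% a CArG box, 6.75% the AP-1 site and 12% the ETS core. Neither of the last 2 motifs was in the 7 promoters of these genes, and no match of 1 motif overlapped a match of another. A match is only a match of letters. A window without a match can still hold a shorter or looser form, such as the ggaa of CCGGAA in the Dusp6 window.

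Measured per kilobase of exon, the 8 detected genes covered a wide range in the control cells. Dusp1 was highest, at 39.8 ± 3.56 CPM per kb (SD, n = 3), above 93.7% of the kept genes. Phlda1 followed at 12.5 ± 1.76, Dusp4 at 10.4 ± 1.26 and Etv4 at 10.1 ± 1.16 CPM per kb. The control ranges of Dusp4 (9.57 to 11.8) and Etv4 (9.14 to 11.4) overlapped, and Phlda1 (11.1 to 14.5) overlapped both, so the order of these 3 genes is not fixed. Spred1 (5.93 ± 0.556) and Etv5 (5.35 ± 0.089 CPM per kb) also overlapped. Dusp6 at 2.57 ± 0.273 and Spry2 at 1.39 ± 0.0238 CPM per kb were the lowest detected, above 41.8% and 31.8% of kept genes. The oe-AQP1 cells had the same order of means, but Dusp4 (13.1 to 13.9 CPM per kb) no longer overlapped Etv4 (9.26 to 10.3) or Phlda1 (16.9 to 19.3).

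**Figure D1:**
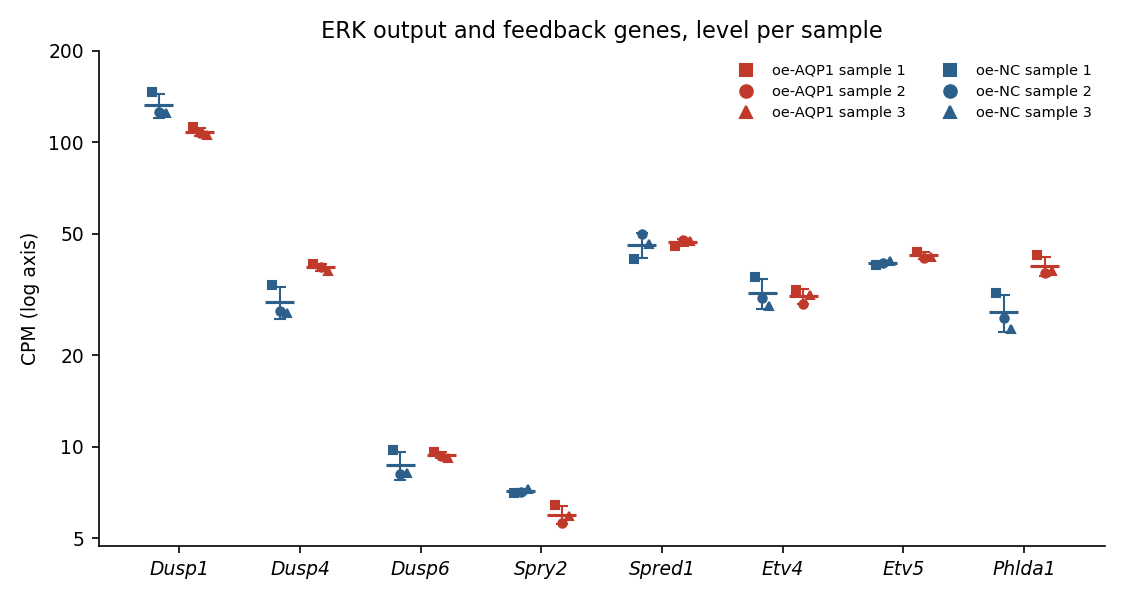
Level of the 8 detected genes in each sample, in CPM on a log axis, with points for samples and bars for the group mean ± SD (n = 3). Dusp4 and Phlda1 are higher and Dusp1 is lower in all 3 oe-AQP1 samples than in any oe-NC sample, while the points of Dusp6, Spred1 and Etv4 overlap.

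Among the phosphatases, Dusp1 and Dusp4 moved in opposite directions. Dusp1 (ENSMUSG00000024190, chr17:26724564-26781102 on GRCm39, minus strand) is an immediate early gene whose product acts in the nucleus on p38 and JNK as well as ERK. It was measured at 112, 108 and 106 CPM in oe-AQP1 and at 146, 125 and 125 CPM in oe-NC. All 3 oe-AQP1 samples were below every control, and oe-NC 1 was the highest. The log2FC was -0.28 (SE 0.06, 95% interval -0.42 to -0.15, FDR = 0.00567). Without oe-NC 1 it was -0.21 (FDR = 2.48e-05). Exons of Dusp1 overlap those of Ergic1 on the opposite strand, which had mean counts of 4617 in oe-AQP1 and 4765 in oe-NC against 2173 to 2863 counts for Dusp1. Whether the counting used strand is not given in the sources used here, so reads of this pair may be hard to separate. The expected counts of Dusp1 were whole numbers in every sample.

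Dusp4 (ENSMUSG00000031530, chr8:35274442-35287048, plus strand) encodes a nuclear phosphatase induced by ERK. It stood at 39.9, 38.97 and 37.8 CPM in oe-AQP1 and at 34.0, 28.0 and 27.5 CPM in oe-NC. The groups did not overlap, although oe-NC 1 lay closer to the oe-AQP1 samples than to the other controls. The log2FC was 0.39 (SE 0.08, 95% interval 0.21 to 0.56, FDR = 0.00392) and 0.49 without oe-NC 1 (FDR = 6.86e-07).

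Dusp6 (ENSMUSG00000019960, chr10:99086564-99103361, plus strand) encodes a cytoplasmic phosphatase selective for ERK and is the member most often read as a gauge of ERK activity. It stood at 9.61, 9.32 and 9.19 CPM in oe-AQP1 and at 9.78, 8.15 and 8.21 CPM in oe-NC. The control sample 1 was the highest of all 6, and the other 2 controls were the lowest. The log2FC of 0.11 (SE 0.10, 95% interval -0.11 to 0.33) did not pass the test (FDR = 0.431), nor did the value of 0.19 without oe-NC 1 (95% interval -0.03 to 0.41, FDR = 0.154). Its counts were fractional in all 6 samples (149 to 205), and the opposite-strand transcript Gm56965 that overlaps it had mean counts of 37.0 and 43.9. The 3 kept genes whose log2 CPM followed Dusp6 most closely over the 6 samples were Pkmyt1 (Pearson r = 0.998), Cep85 (0.995) and N4bp3 (0.992), a description over 6 samples that share the excursion of oe-NC 1, and 329 genes had r over 0.9.

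Dusp5 (ENSMUSG00000034765, chr19:53517532-53530862, plus strand), a nuclear ERK phosphatase, had 1 count in oe-AQP1 2 and 0 counts in the 5 other samples. In those 5 samples 3 counts, the upper limit that a count of 0 allows, corresponded to 0.141 to 0.164 CPM, which covers counting error only. The sequence with paired CArG boxes shown above belonged to a gene with next to no RNA here.

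Of the inhibitors in this set that act on RAS and RAF, neither tested gene, Spry2 or Spred1, passed the test. Inhibitors outside the set are given further below. Spry2 (ENSMUSG00000022114, chr14:106128766-106136446, minus strand), a receptor-proximal antagonist, stood at 6.42, 5.59 and 5.93 CPM in oe-AQP1 and at 7.03, 7.11 and 7.27 CPM in oe-NC. All 3 oe-AQP1 samples were below the controls, which lay close together. The log2FC was -0.26 (SE 0.10, 95% interval -0.49 to -0.03, unadjusted p = 0.0284, FDR = 0.0762), and -0.27 without oe-NC 1 (FDR = 0.0888). The opposite-strand transcript Gm62623 overlaps Spry2 and had mean counts of 9.86 in oe-AQP1 and 4.70 in oe-NC, against 122 to 155 counts for Spry2.

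Spred1 (ENSMUSG00000027351, chr2:116951524-117018277, plus strand), which brings the RAS inactivator neurofibromin to the membrane, stood at 45.7, 47.9 and 47.3 CPM in oe-AQP1 and at 41.5, 50.1 and 46.5 CPM in oe-NC. The controls spanned the oe-AQP1 samples on both sides. The log2FC was 0.04 (95% interval -0.12 to 0.19, FDR = 0.729) and -0.03 without oe-NC 1 (FDR = 0.605). Spry4 (ENSMUSG00000024427, chr18:38719300-38736025, minus strand), a Sprouty antagonist often listed among ERK output genes, had 0 counts in all 6 samples, which allows up to 0.164 CPM.

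Etv4 and Etv5 encode ETS transcription factors of the PEA3 group, and neither passed the test. Etv4 (ENSMUSG00000017724, chr11:101660568-101676197, minus strand) stood at 32.7, 29.4 and 31.6 CPM in oe-AQP1 and at 36.1, 30.8 and 29.0 CPM in oe-NC. The highest and the lowest sample were both controls. The log2FC was -0.03 (95% interval -0.21 to 0.16, FDR = 0.833) and 0.06 without oe-NC 1 (FDR = 0.438).

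Etv5 (ENSMUSG00000013089, chr16:22200052-22259662, minus strand) stood at 43.7, 41.8 and 42.1 CPM in oe-AQP1 and at 39.5, 40.0 and 40.9 CPM in oe-NC. The oe-AQP1 samples were all higher than the controls. The log2FC was 0.08 (SE 0.05, 95% interval -0.03 to 0.19, FDR = 0.226) and 0.07 without oe-NC 1 (FDR = 0.266). These intervals bound the differences of Spred1, Etv4 and Etv5 to less than 0.22 in absolute log2FC, without showing that they are 0.

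Phlda1 (ENSMUSG00000020205, chr10:111342147-111344506, plus strand), a pleckstrin homology-like protein that is induced by ERK and other stress and growth signals, had the largest log2FC of the 8. It stood at 42.6, 37.3 and 37.9 CPM in oe-AQP1 and at 31.9, 26.5 and 24.4 CPM in oe-NC. Every oe-AQP1 sample was above every control, and sample 1 was the highest in each group. The log2FC was 0.51 (SE 0.09, 95% interval 0.30 to 0.72, FDR = 0.00224) and 0.62 without oe-NC 1 (FDR = 3.90e-07).

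**Figure D2:**
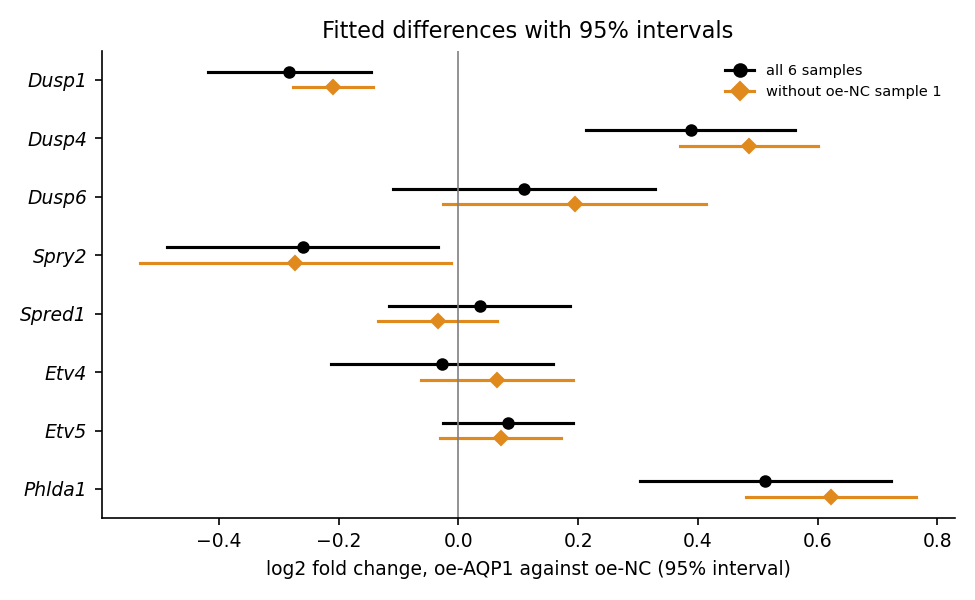
Fitted log2FC of the 8 tested genes with 95% intervals, from all 6 samples (black) and without oe-NC sample 1 (orange). The intervals of Dusp1 and Spry2 lie below 0 and those of Dusp4 and Phlda1 above 0 in both fits. Spry2 did not pass the FDR threshold in either (FDR = 0.0762 and 0.0888). The intervals of Dusp6, Spred1, Etv4 and Etv5 include 0.

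Of the 8 genes tested, 2 were higher and 1 was lower, against 16% and 16.6% of all kept genes, and 0 of 8 were DEGs, against 5.23%. The DEG count of 0 by limma-voom stands beside 2 genes higher and 2 lower at an unadjusted p under 0.05. The median log2FC of the 8 was 0.06, beside 0.00 for all kept genes. The 2 groups did not overlap in CPM for 5 of the 8 (Dusp1, Dusp4, Spry2, Etv5 and Phlda1), and 47.3% of all kept genes showed the same. For each of these 5 the exact two-sided permutation p was 0.1, the smallest that 3 against 3 samples can give.

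The excursion of oe-NC 1 was shared by part of the set. Relative to the oe-NC mean on the log2 scale it was higher by 0.15 for Dusp1, by 0.20 for Dusp4, by 0.17 for Dusp6, by 0.18 for Etv4 and by 0.22 for Phlda1. It was lower for Spred1 (-0.15) and within 0.03 for Spry2 (-0.02) and Etv5 (-0.02). Deviations over 0.1 were thus upward in 5 and downward in 1 of 8 genes, where 26% and 23.8% of all kept genes deviated upward and downward by as much. In the oe-AQP1 samples the deviations of all 8 genes lay between -0.09 and 0.12. Sample oe-AQP1 1 was above its group mean for 7 of the 8, and oe-AQP1 2 and oe-AQP1 3 were each below it for 6. The share of all kept genes with these signs was not taken.

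**Figure D3:**
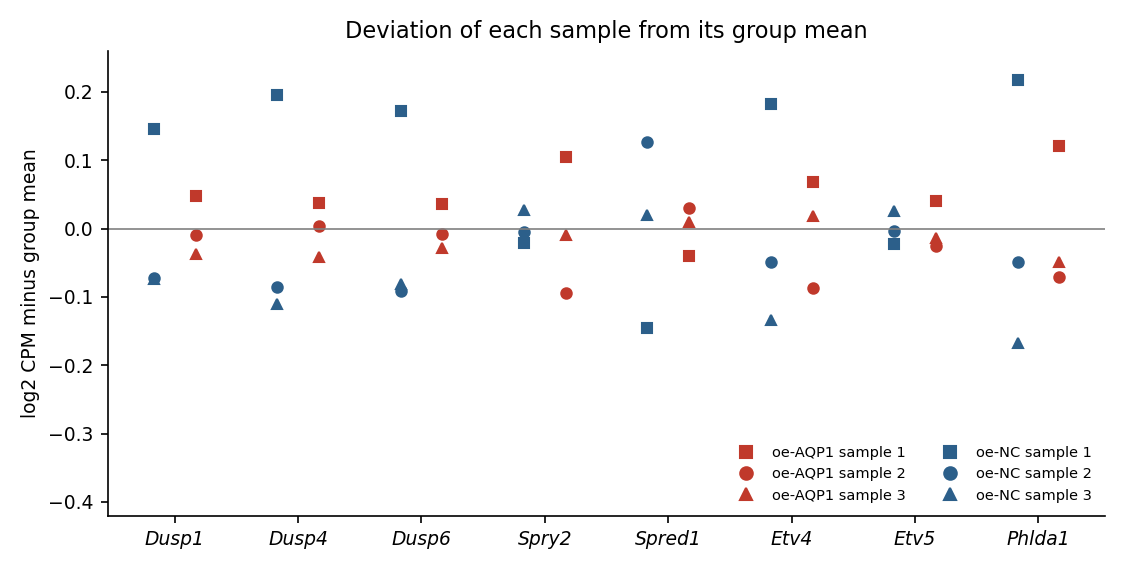
Deviation of each sample from its group mean in log2 CPM for the 8 detected genes, with marker shape for the sample number. The blue squares, oe-NC sample 1, lie 0.15 to 0.22 above the mean for Dusp1, Dusp4, Dusp6, Etv4 and Phlda1 and 0.15 below it for Spred1.

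A ratio of 2 genes' counts within a sample does not depend on scaling between samples, and 4 such ratios were taken after the values had been seen. Dusp4 counts were 0.356, 0.362 and 0.358 of Dusp1 counts in oe-AQP1 and 0.233, 0.223 and 0.220 in oe-NC. The oe-NC 1 value lay beside the other controls, and the ratio was 1.59-fold higher in oe-AQP1. Phlda1 to Dusp1 was 0.362 ± 0.0171 against 0.209 ± 0.0123 (SD, n = 3), a 1.73-fold difference. Dusp6 to Dusp4 was 0.240, 0.240 and 0.243 in oe-AQP1 and 0.288, 0.291 and 0.297 in oe-NC, a factor of 0.825 with no overlap between the groups. Egr1, an ERK-induced zinc finger factor, to Dusp1 was 0.597 ± 0.0123 against 0.271 ± 0.0127, a 2.21-fold difference. Dusp4, Phlda1 and Egr1 lay above every control in CPM and Dusp1 below, so separation of the ratios over Dusp1 was fixed in advance. Each of the 4 ratios had an exact two-sided permutation p of 0.1, the smallest possible. For pairs picked after the values were seen, that p adds no support. The share of all gene pairs that separate in this way was not taken. Leaving out any 1 sample kept the Dusp4 to Dusp1 fold between 1.57 and 1.62 and the Dusp6 to Dusp4 factor between 0.819 and 0.833.

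**Figure D4:**
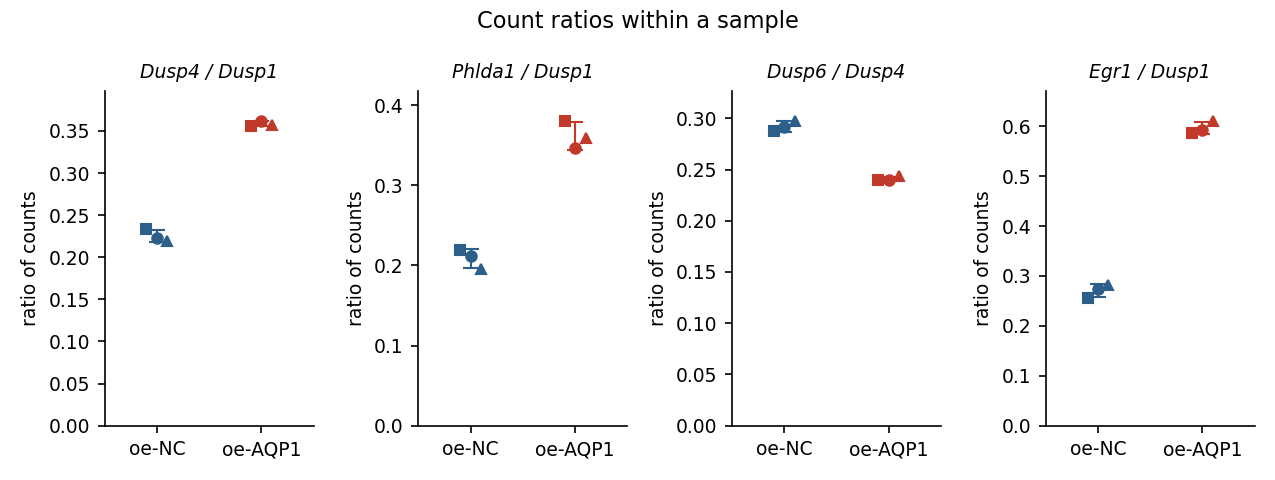
Ratios of expected counts within each sample for 4 gene pairs, each axis starting at 0, with points for samples and bars for mean ± SD (n = 3). Dusp4, Phlda1 and Egr1 are higher relative to Dusp1 in oe-AQP1, Dusp6 is lower relative to Dusp4, and oe-NC sample 1 (square) sits with the other controls in all 4.

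The surrounding pathway was read from 95 further genes in lists by role, of which 75 were tested. Of these, 15 were higher and 13 lower, or 20% and 17.3% beside the 16% and 16.6% of all kept genes, so the pathway as a whole lay near the background. A further 47 were not called, and the median log2FC was -0.02. Only Btc and Igf1 were DEGs. Without oe-NC 1 the counts were 21 higher and 18 lower, beside 3125 and 3331 of the 16085 genes kept in that fit. Without oe-AQP1 2 the lower count was 7, beside 1745 of 15863 kept genes. Leaving out any other sample also gave fewer calls over all kept genes than the 2481 higher and 2569 lower of the full fit. The leave-one-out counts of the lists below stand beside these shifts over all genes.

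Of the 6 other MAP kinase phosphatases, 2 rose and none fell (33.3% and 0%, beside 16% and 16.6% of all kept genes). The count higher was 1 without oe-AQP1 2, oe-AQP1 3 or oe-NC 3. Dusp10, which acts on p38 and JNK, stood at 13.7, 10.96 and 12.5 CPM against 8.76, 8.54 and 9.05 CPM in oe-NC (log2FC = 0.48, FDR = 0.00496). Dusp16, a JNK phosphatase, stood at 67.4, 68.1 and 68.0 against 61.2, 63.0 and 56.3 CPM (log2FC = 0.18, FDR = 0.0235), and its call was lost in 5 of 16 alternatives. Neither gene's groups overlapped.

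In the Sprouty and Spred family, 3 of 4 further genes were tested. Spry1 fell, from 61.6, 54.1 and 51.3 CPM in oe-NC to 43.7, 40.8 and 45.0 CPM in oe-AQP1 (log2FC = -0.36, FDR = 0.00376). The groups did not overlap, and without oe-NC 1 the log2FC was -0.29 (FDR = 0.000108). Spred3, which was near the lower end of detection, rose from 1.73, 2.08 and 1.78 to 2.73, 2.91 and 2.38 CPM (log2FC = 0.52, FDR = 0.0439), a call lost in 10 of 16 alternatives. Among the relatives of Etv4, Etv5 and Phlda1, Etv1 and Phlda2 had 0 counts in all 6 samples and Phlda3 did not pass the test (log2FC = -0.16, FDR = 0.167).

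Of 14 tested genes that ERK is known to induce, 6 were higher (Egr1, Egr2, Fos, Junb, Myc and Lif) and 2 lower (Maff and Plaur), which is 42.9% and 14.3% beside 16% and 16.6% of all kept genes. Without oe-NC 1, 9 were higher and 2 lower, beside 3125 and 3331 of 16085 kept genes. Without any other 1 sample, 5 were higher and 2 or 3 lower. Egr2, a zinc finger factor like Egr1, had the highest log2FC at 0.89 (FDR = 0.0454) from 1.26, 1.00 and 1.17 CPM against 0.713, 0.383 and 0.751 CPM, and its call was lost in 8 of 15 alternatives. Maff, a small MAF factor, fell from 72.2, 57.7 and 61.2 to 51.8, 49.2 and 49.7 CPM (log2FC = -0.34, FDR = 0.00743). Egr1, singled out after its values were seen, was the firmest of the 6 at 65.8, 63.8 and 64.5 CPM against 37.4, 34.3 and 35.3 CPM (log2FC = 0.86, FDR = 6.42e-07). Ccnd1, the cyclin D1 gene, was abundant and did not pass the test (1028 to 1060 CPM in all 6 samples, log2FC = -0.00, FDR = 0.941). Epha2 had a log2FC of 0.04 (FDR = 0.642), and 0.12 without oe-NC 1 (FDR = 0.00629). Epha4 had 1 to 8 counts and was not kept.

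The calls in the kinase relay itself were about as frequent as among all genes. Of 17 cascade genes tested, 2 were higher and 3 lower (11.8% and 17.6%, beside 16% and 16.6% of all kept genes). Leaving out 1 sample moved the lower count to 1 (oe-AQP1 2) and to 6 (oe-NC 1), and the higher count was 1 without oe-NC 3 or any 1 oe-AQP1 sample. Map2k1, which encodes MEK1, rose from 98.1, 96.3 and 94.2 to 131, 137 and 135 CPM (log2FC = 0.48, FDR = 9.34e-06), the highest log2FC among them. Nras fell the most, from 80.9, 95.1 and 93.2 to 74.5, 71.0 and 74.6 CPM (log2FC = -0.29, FDR = 0.00616). Among 8 receptors tested, 2 were higher and 3 lower (25% and 37.5%, beside the same 16% and 16.6%). Axl, a TAM family receptor tyrosine kinase, rose to 139, 141 and 138 CPM from 117, 106 and 102 CPM (log2FC = 0.37, FDR = 0.000405). Met, the receptor of hepatocyte growth factor, fell to 27.6, 30.8 and 32.1 CPM from 40.4, 45.9 and 43.9 CPM (log2FC = -0.52, FDR = 0.000338).

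Among 9 ligands tested, 2 were higher and 2 lower (22.2% each, beside 16% and 16.6% of all kept genes). The lower count was 0 without oe-AQP1 2 and 1 without oe-AQP1 3, oe-NC 2 or oe-NC 3, and the higher count was 1 in 5 of the 6 fits that left out a sample, all but the one without oe-NC 1. Btc, betacellulin, a ligand of the EGF receptor, rose from 5, 7 and 6 counts to 27, 26 and 33 counts (log2FC = 2.10, FDR = 0.000613). Igf1 fell from 11, 17 and 14 to 10, 6 and 4 counts (log2FC = -1.16, FDR = 0.0479), a call lost in 8 of 15 alternatives. Both rest on few counts, and the ranges did not overlap. Of 9 adaptors and exchange factors only Shc1 was called (log2FC = -0.13, FDR = 0.0187). That call was lost in 4 of 16 alternatives, under DESeq2 and without each oe-AQP1 sample, and 3 adaptors were lower without oe-NC 1. Of 8 negative regulators only Pebp1, the RAF kinase inhibitor protein gene, was called (log2FC = -0.19, FDR = 0.00259). The 16.6% of all kept genes that were lower stand beside 11.1% of the adaptors and 12.5% of the negative regulators.

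**Figure D5:**
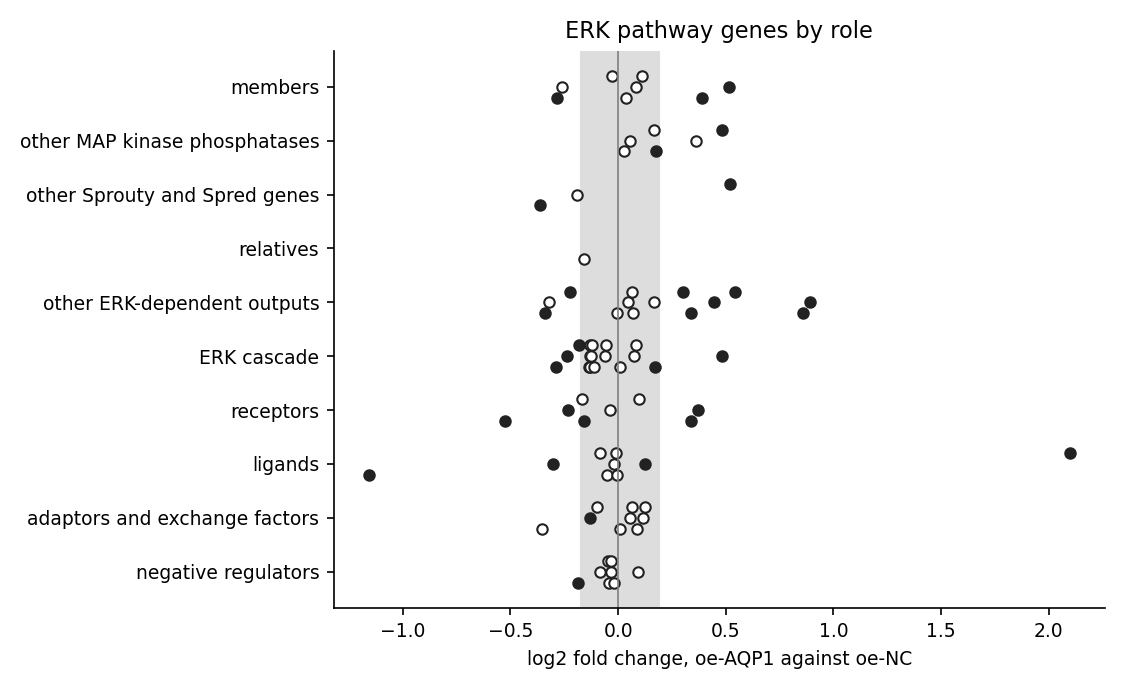
Fitted log2FC of the 8 tested feedback and output genes (top line, members) and of 75 further pathway genes by role, with filled points at FDR under 0.05 and a grey band from the lower to the upper quartile of all kept genes (-0.17 to 0.19). Filled points lie on both sides of 0 among the members, the other outputs, the cascade, the receptors and the ligands.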

How the data were processed

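RENCA cells were profiled by paired-end RNA sequencing of total RNA, 3 oe-AQP1 and 3 oe-NC samples. The authors deposited expected counts per gene, unscaled between samples, with 2 columns of group means that were not used here. The paper names GRCm39, whereas the submitters' processing notes list GRCm38, mm10, fastp, HISAT2, Subread and featureCounts without roles. Between 9.52% and 10.6% of genes per sample had a fractional count. No other columns of per-sample values were present (0).

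Counts were rounded, filtered by filterByExpr with group (15522 genes kept), scaled by TMM (factors 0.9933 to 1.0062) and tested by limma-voom (limma 3.58.1, edgeR 4.0.16, R 4.3.3). On counts simulated beforehand, the same test called 100% of 2-fold and 78% of 1.3-fold changes. The changed genes were drawn from better-counted ones, and no outlying control was simulated. CPM used the TMM-scaled library sizes. Positions and exon lengths came from GENCODE M39, which held 99.83% of the gene identifiers. Of 136 listed symbols, 135 were found, and Spry3 was not analysed here. The genes and lists were chosen with earlier results of these data known. The text names all 10 genes, Aqp1, from each list the called gene with the highest and the lowest log2FC, every called gene of the 3 lists of relatives, Ccnd1, Epha2 and Epha4, and the 3 genes nearest Dusp6. The results were recomputed with DESeq2 1.42.0, with the quasi-likelihood test of edgeR, with sample quality weights, under other scaling factors and filters, on unrounded counts, with a replicate block and with each sample left out.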

Additional observations from a re-analysis of the deposited data

How the results depend on the processing

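Over 16 alternatives, the calls of Dusp1 (log2FC -0.32 to -0.21, FDR at most 0.0342), Dusp4 (0.33 to 0.49, FDR at most 0.0215) and Phlda1 were kept in 16 of 16, and no other member was called in any. All 128 member fits kept their side of the threshold. The sign of Etv4 and Spred1, neither called, turned under sample quality weights (0.03 and -0.02) and without oe-NC replicate 1, and that of Etv4 also without oe-AQP1 replicate 2 (0.02). With 1 sample left out, 7 (without oe-AQP1 replicate 2) to 18 (without oe-NC replicate 1) of the other pathway genes were lower, and 10 to 21 were higher. Over all kept genes the lower counts without these samples were 1745 of 15863 and 3331 of 16085. Pdgfb, not called with all samples (log2FC -0.02), ranged from -0.0932 (without oe-NC replicate 3) to 0.10 (FDR = 0.00463, without oe-NC replicate 1). The cause was not tested. The replicate block gave 11 of the other pathway genes higher and 14 lower, with 2 members higher and 1 lower. Same-numbered samples did not deviate together over all genes (r = 0.0147, -0.0201 and -0.0729). With 3 samples per group, these values cannot show whether same-numbered samples shared a preparation. Counts of 122 to 205 for Dusp6 and Spry2 limit the differences that can be seen there.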
